A study of Mus musculus with 80 samples.

Results

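Potassium channel genes were described in mouse AgRP neurons, the hunger-promoting cells of the arcuate hypothalamus that make the peptides AgRP and NPY. The members were all genes of the deposited expression table whose symbol begins with Kcn followed by a family letter, and there were 95 of them among 23337 genes. They comprised 53 voltage-gated channel genes with their silent and auxiliary subunits, 15 inward rectifiers, 14 tandem-pore (K2P) channels, 12 calcium- or sodium-activated channel genes with their beta subunits, and the non-coding RNA Kcnq1ot1. In at least 1 group 72 members reached a mean of 50 normalised counts, that is reads per gene divided by a size factor of the library, and only these are named with their values. The members nearest to that limit were Kcnt2 and Kcnk5 below it, with highest group means of 47.8 and 39.7 normalised counts, and Kcnj14, Kcnk6 and Kcnn4 above it, with 51.2, 57.6 and 57.7.

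The 80 RNA-seq libraries fell into 20 groups of 4 experiments. GFP-positive cells were sorted from NPY::hrGFP mice at ZT2 or ZT14, that is 2 or 14 h after lights on, in 3 feeding states: after a fast of 24 h at ZT2 (7 libraries) and ZT14 (8), after a fast of 24 h and 1 h of refeeding (5 and 4), or fed ad libitum (6 and 3). RiboTag libraries, made from RNA immunoprecipitated with a tagged ribosomal protein from AGRP-Cre;RiboTag mice, came from fasted (5 at ZT2, 5 at ZT14) and ad libitum fed mice (3 and 4). Knockouts of the clock gene Bmal1 (gene symbol Arntl; AGRP-Cre;BMAL1fx) and their floxed controls (WT;BMAL1fx) received leptin or PBS, with 3 libraries for each of the 4 knockout groups and 3 or 4 for each of the 4 control groups, and a further set of 3 knockout and 2 control libraries was collected at ZT5. In the knockout the deletion was limited to cells with AGRP-Cre activity, and in the sort the reporter was driven by NPY, which other arcuate cells can also make. The labels name no GFP reporter for the floxed mice and do not say whether the libraries of a group stem from different mice, and the p-values below therefore reflect the spread among libraries alone, which may be technical.

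Potassium channels let potassium leave the cell and so set the resting potential, end the action potential and limit firing. Kv channels open on depolarisation, with A-type Kv4 channels delaying the next spike and Kv7 channels carrying the slow M current. Kir channels hold the resting potential and include the G-protein-gated GIRK channels and the ATP-sensitive KATP channel, K2P channels carry the background leak, and BK and SK channels open when calcium rises and shape the afterhyperpolarisation. In AgRP neurons these conductances are known as points at which leptin, insulin and inhibitory transmitters lower firing, and fasting is known to raise it.

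Recovered reads per library ranged from 5.93 to 34 M reads, and 54 to 88 members were above 0 in a library. All 10 AgRP-neuron markers (Agrp and Npy among them) were above 0 in every library. RiboTag libraries also held many glial transcripts. The summed level of 7 astrocyte markers was 9392 to 109400 normalised counts in the 17 RiboTag libraries and 44.9 to 15600 in the other 63. That of 6 oligodendrocyte markers was 10830 to 240500 in RiboTag libraries, against 751 to 6537 in the others. Arntl did not check the deletion: its gene-level counts overlapped between knockout and control in 4 of 5 settings (246 to 526.3 normalised counts in PBS-treated knockouts and 291 to 1125 in PBS-treated controls at ZT2), and the deleted part is not resolved by gene counts. In the ZT5 set 2 libraries go against their labels for another gene, Hsd11b2, so that their genotypes are given as labelled. Cebpb and Alyref separated the 25 fasted and 5 ZT5 libraries from the other 50, with 42.5 to 1565 normalised counts of Cebpb in fasted and 433 to 629.6 in ZT5 libraries, against 0 to 17.1 in the others. The ribosomal RNA precursor Rn45s went the other way. It had 1725 to 15466.5 normalised counts in fasted sorted cells at ZT2 and 2289.8 to 10242.1 at ZT14. ZT5 libraries held 1577 to 4007, and the other 50 libraries 50800 to 963300. Fasted RiboTag libraries reached 148448 and so overlapped with the other 50. Fasting cannot be told apart here from the Cebpb and Alyref profile, nor in sorted cells from the Rn45s difference.

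Per kilobase of transcript, Kcnip4, Kcnk2 and Kcnip1 led the members in sorted cells of ad libitum fed mice. Kcnip4, a calcium-binding auxiliary subunit of Kv4 channels, had 562 normalised counts per kb in RiboTag libraries of ad libitum fed mice and 886 in sorted cells of ad libitum fed mice. Kcnk2, the mechanosensitive leak channel TREK, had 492.9 in RiboTag libraries and 516 in sorted cells on the same scale, and Kcnip1 had 354 in RiboTag libraries and 380.4 in sorted cells. Among pore-forming Kv genes, Kcnc2, a Kv3 subunit for fast repolarisation, had 177 in RiboTag libraries and 219 in sorted cells, and the A-type Kv4 gene Kcnd2 had 121 in RiboTag libraries and 156 in sorted cells. The K2P gene Kcnk1 (TWIK) had 381 in RiboTag libraries and 169.8 in sorted cells. Among the inward rectifiers of sorted cells the GIRK subunits Kcnj5, Kcnj9 and Kcnj6 led with 60.4, 49.8 and 42.6 per kb, and Kcnj11, the pore of the KATP channel, had 10.3 per kb. Among the calcium- or sodium-activated genes of sorted cells Kcnt1, the sodium-activated channel Slack, had 58.9 per kb and the BK pore gene Kcnma1 had 39.6. Kcnu1, a channel best known from sperm and placed in this class by its gene family alone, had 38.4.

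The inward rectifiers Kcnj10, Kcnj16 and Kcnj13 and the Kv1 gene Kcna1 set the RiboTag libraries apart from the other experiments. Kcnj10 and Kcnj16, known as glial potassium-buffering channels, had 172 and 199 normalised counts per kb in RiboTag libraries of ad libitum fed mice, against 2.05 and 0.724 in sorted cells of ad libitum fed mice. Kcnj13, known from choroid plexus and other epithelia, had 366 in RiboTag libraries, against 12.2 in sorted cells, and Kcna1, an axonal Kv1 subunit, had 67.3 in RiboTag libraries, against 0.575 in sorted cells. Group means of Kcnj10 ran from 408 to 1146 normalised counts over the 4 RiboTag groups and from 0 to 43.5 over the other 16. Within the RiboTag groups Kcnj10 was highest where the glial marker sums were highest: its 3 libraries of ad libitum fed mice at ZT2 held 2695, 307 and 436 normalised counts, and the first of these had an astrocyte marker sum of 92890, the highest of that group. The sorted and RiboTag experiments were fitted apart, so that these differences are levels with no test.

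**Figure D1:**
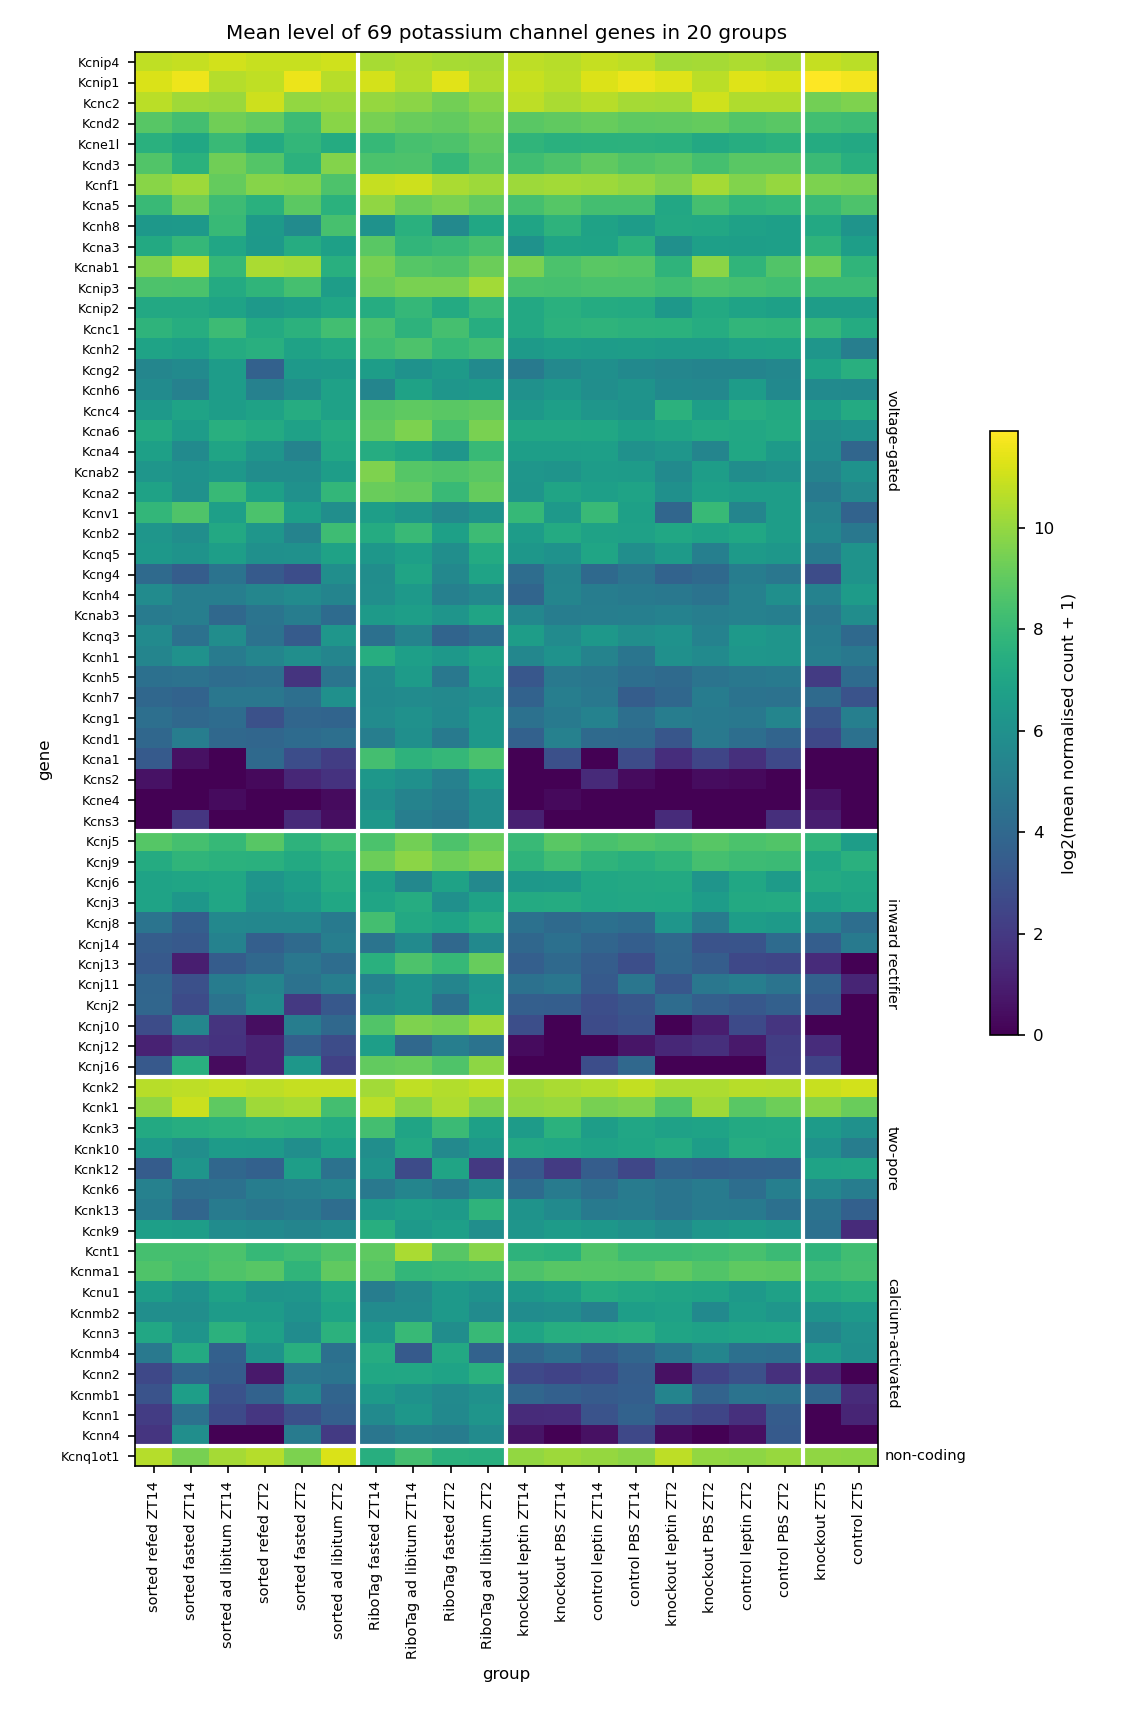
Heat map of the log2(mean normalised count + 1) of 69 members with a group mean of at least 50 (rows, split by class) in the 20 groups (columns). Kcnip4 and Kcnk2 are high in all groups, with lowest group means of 1206 and 1188, while Kcnj10, Kcnj16, Kcnj13 and Kcna1 have their highest group means in the 4 RiboTag groups.

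The promoters of 4 members are shown, those of Kcnmb4 and Kcnk12, which rose with the fast at both times in sorted cells, and those of the Kv4 genes Kcnd3 and Kcnd2, which fell at both times. They are from RefSeq (GRCm38.p6), from 250 bases before to 50 after the annotated start, on the strand of the gene and 5′ to 3′. Capitals mark the GC box GGGCGG or its reverse complement, a motif bound by Sp-family factors. They lie at chr10:116473474-116473773 (minus strand, Kcnmb4), chr17:87797945-87798244 (minus, Kcnk12), chr3:105451640-105451939 (plus, Kcnd3) and chr6:21215096-21215395 (plus, Kcnd2).
Kcnmb4: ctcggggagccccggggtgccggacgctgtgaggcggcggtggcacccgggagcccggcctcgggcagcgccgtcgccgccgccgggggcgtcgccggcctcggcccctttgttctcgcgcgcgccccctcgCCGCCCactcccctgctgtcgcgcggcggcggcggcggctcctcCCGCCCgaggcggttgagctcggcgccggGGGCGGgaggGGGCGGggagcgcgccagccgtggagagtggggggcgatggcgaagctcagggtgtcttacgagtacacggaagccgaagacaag
Kcnk12: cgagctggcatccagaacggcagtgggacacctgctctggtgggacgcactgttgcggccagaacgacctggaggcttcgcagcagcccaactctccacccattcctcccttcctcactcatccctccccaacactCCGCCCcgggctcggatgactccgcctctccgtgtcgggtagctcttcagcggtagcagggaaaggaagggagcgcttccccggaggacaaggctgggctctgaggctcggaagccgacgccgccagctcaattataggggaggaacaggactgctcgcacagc
Kcnd3: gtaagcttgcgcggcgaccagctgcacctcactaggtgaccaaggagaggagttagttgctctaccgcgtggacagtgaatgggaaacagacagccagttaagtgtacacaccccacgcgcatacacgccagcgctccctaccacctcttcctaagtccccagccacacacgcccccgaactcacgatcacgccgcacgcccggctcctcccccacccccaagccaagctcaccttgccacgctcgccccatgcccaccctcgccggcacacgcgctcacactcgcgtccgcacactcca
Kcnd2: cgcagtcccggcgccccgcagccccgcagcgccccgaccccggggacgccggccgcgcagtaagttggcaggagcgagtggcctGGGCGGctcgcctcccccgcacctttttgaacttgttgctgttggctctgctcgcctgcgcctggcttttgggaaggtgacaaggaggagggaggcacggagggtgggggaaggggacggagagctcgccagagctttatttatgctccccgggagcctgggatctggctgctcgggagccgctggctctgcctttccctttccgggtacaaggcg
The Kcnmb4 window was the richest in G and C, at 79%, with 4 GC boxes, while the Kcnd3 window held none at 64%. Of the 95 windows of members (70 of the 95 members had a window, some several) 47.4% held a GC box, against 35.7% of all 32851 windows of the same length. The clock E-box CACGTG stood in 7.4% of the members' windows and in 7.2% of all windows, searched like the others on both strands, and none of the 4 printed windows held it. The cAMP response element TGACGTCA stood in none of the members' windows and in 1.8% of all, and the TATA box TATAAA in 5.3% against 13.6%.

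Fasting was first compared with ad libitum feeding in sorted cells at ZT2, the study's test of what an energy deficit does in these neurons. After the fast the A-type channel genes Kcnd3 and Kcnd2, the M-current gene Kcnq3, the Elk-type gene Kcnh8 and the SK gene Kcnn3 fell, while the Kv4-interacting proteins Kcnip3 and Kcnip1, the leak genes Kcnk1 and Kcnk12 and the BK beta subunit Kcnmb4 rose. Of the 75 members that passed the filter on low values (10 or more normalised counts in a number of libraries equal to the size of the smallest group) 7 rose and 19 fell at a Benjamini-Hochberg adjusted p under 0.05 in limma. These were 34.7% of the tested members, near the 37.5% of all 14931 genes tested, with 9.33% higher against 18.3% of all genes and 25.3% lower against 19.2%. The members' median log2 difference was -0.42, against -0.02 over all genes. Among voltage-gated genes 4 of 42 rose and 14 fell, among calcium- or sodium-activated genes 1 of 11 rose and 3 fell, and among K2P genes 2 of 9 rose and 1 fell. None of the 12 inward rectifiers passed, with 2 at an unadjusted p under 0.05 and a class median of -0.65. Of the 14931 genes tested 6859 had an unadjusted p under 0.05. Fewer cells of a type and less RNA per cell cannot be told apart in these bulk libraries.

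Of the 3 Kv4 pore genes 2 fell. Kcnd3 had a lowest value of 85.1, a median of 209.7 and a highest value of 310.2 normalised counts in the 7 fasted libraries, against 567, 757 and 1276 in the 6 ad libitum libraries. Every fasted library was below every ad libitum one, and the log2 difference was -2.06 ± 0.26 (SE; limma adjusted p = 1.28e-07). For Kcnd2 the lowest, median and highest values were 148, 312 and 357 in fasted cells, against 574, 790.2 and 1408 in ad libitum cells. These ranges did not overlap either, with a log2 difference of -1.64 ± 0.28 (SE; limma adjusted p = 1.77e-05). The third, Kcnd1, gave a log2 difference of 0.28 ± 0.89 (SE; limma adjusted p = 0.834) and was not called. Of their 4 calcium-sensing partners, the Kv4-interacting proteins, 2 rose. Kcnip1 had 2209, 2831 and 4139.7 (lowest, median, highest) normalised counts in fasted cells, against 1329, 1468 and 2008 in ad libitum cells, without overlap, and a log2 difference of 0.93 ± 0.18 (SE; limma adjusted p = 0.000127). Kcnip3, also known as the calcium-regulated transcriptional repressor DREAM, had 172, 334 and 457 in fasted cells, against 36.4, 109 and 134 in ad libitum cells. It too was higher in every fasted library, by a log2 difference of 1.83 ± 0.26 (SE; limma adjusted p = 1.13e-06). Kcnip2 and Kcnip4 were not called, at log2 differences of -0.25 ± 0.30 (SE; limma adjusted p = 0.551) and -0.10 ± 0.18 (SE; limma adjusted p = 0.708).

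Other Kv genes that fell included members of the Kv7, Elk and Kv1 families. Kcnq3, a subunit of the M channel, had 0, 2.36 and 32.3 normalised counts (lowest, median, highest) in fasted cells, against 34.95, 80.9 and 113 in ad libitum cells. All fasted libraries lay below all ad libitum ones at this low level, and the log2 difference was -3.80 ± 0.76 (SE; limma adjusted p = 0.000151). Kcnh8 had 22.4, 57.00 and 89.9 in fasted cells, against 217, 319.6 and 524 in ad libitum cells, again without overlap and with a log2 difference of -2.76 ± 0.45 (SE; limma adjusted p = 1.23e-05). The Kv1 gene Kcna2 differed by -2.03 ± 0.41 (SE; limma adjusted p = 0.000167) on the log2 scale, with no overlap between the groups. In the opposite direction, the Kv1 gene Kcna5 had 265, 395 and 887 in fasted cells, against 131, 212 and 237 in ad libitum cells, a log2 difference of 1.21 ± 0.30 (SE; limma adjusted p = 0.00183). Kcnab1, a Kv1 beta subunit, rose by a log2 difference of 1.72 ± 0.66 (SE; limma adjusted p = 0.0382), but its fasted libraries spread from 73.4 to 3753 normalised counts and the call was lost under 8 of 22 alternatives.

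Calcium-activated genes moved in both directions. Kcnn3, the SK subunit that underlies a medium afterhyperpolarisation, had 27.4, 40.1 and 131 normalised counts in fasted cells, against 111, 186 and 342 in ad libitum cells (lowest, median, highest). The highest fasted library lay inside the ad libitum range and the other 6 below it, and the log2 difference was -1.96 ± 0.40 (SE; limma adjusted p = 0.000228). Kcnma1, the BK pore, had 106, 201 and 364 in fasted cells, against 306, 557 and 627 in ad libitum cells, ranges that overlapped, with a log2 difference of -1.29 ± 0.27 (SE; limma adjusted p = 0.000282). Kcnmb4, the BK beta subunit of brain, had 42.7, 238 and 301 in fasted cells, against 9.24, 21.7 and 26.2 in ad libitum cells. Every fasted library exceeded every ad libitum one, by a log2 difference of 2.93 ± 0.51 (SE; limma adjusted p = 2.41e-05).

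Of the 9 K2P leak genes tested 2 rose, 1 fell (Kcnk10, named after its value was seen) and 6 were not called, and the KATP pore did not pass. Kcnk1 had 737, 918 and 2704 normalised counts (lowest, median, highest) in fasted cells, against 211, 346 and 368 in ad libitum cells, without overlap, and a log2 difference of 1.90 ± 0.28 (SE; limma adjusted p = 2.77e-06). Kcnk12, a THIK-type subunit, had 37.4, 95.7 and 179 in fasted cells, against 0, 21.2 and 42.9 in ad libitum cells, ranges that overlapped at the edge, with a log2 difference of 2.72 ± 0.75 (SE; limma adjusted p = 0.00449). Kcnj11 had 0, 7.67 and 84.03 in fasted cells, against 23.1, 34.5 and 38.6 in ad libitum cells, so that the fasted range enclosed the other, and its log2 difference of -1.80 ± 0.76 (SE; limma adjusted p = 0.0614) missed the threshold. The calls of Kcna2, Kcnn3, Kcnma1 and Kcnk12, and with the replicate block that of Kcna5, were lost after a correction for transcript length and GC content, which brought the log2 difference of Kcnma1 to 0.0862. Markers of other cell types moved with the fast as well. Of the astrocyte markers 3 of 7 rose, with a summed level of 191.8 to 10470 in fasted and 53.3 to 454 in ad libitum libraries. Of the markers of other hypothalamic neurons 5 of 8 rose, with a summed level of 10450 to 23910 in fasted and 3817 to 9622 in ad libitum libraries. Of the POMC-neuron markers 2 of 4 rose, with sums of 1451 to 42720 in fasted and 1024 to 2200.0 in ad libitum libraries, and of the endothelial and mural markers 1 of 3. The part of these cells in the members' differences was not tested.

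**Figure D2:**
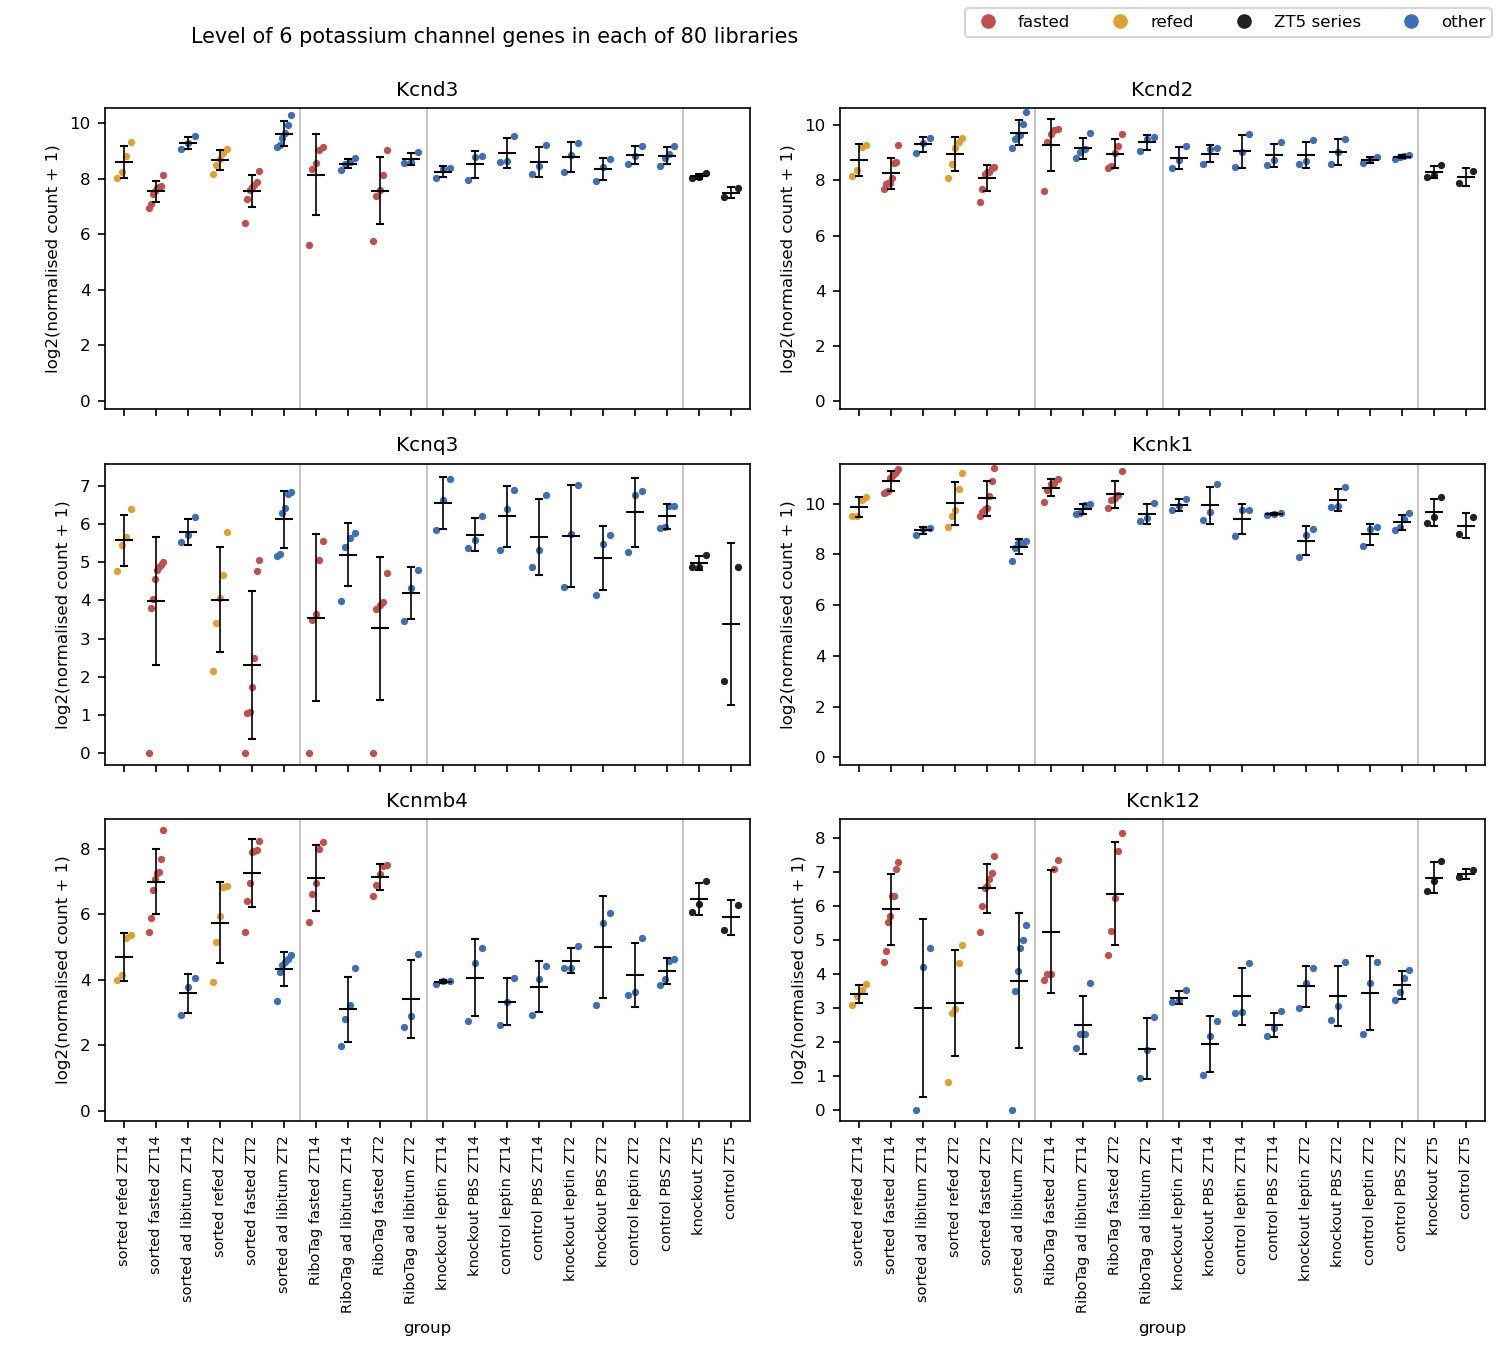
Log2(normalised count + 1) of Kcnd3, Kcnd2, Kcnq3, Kcnk1, Kcnmb4 and Kcnk12 in every library (points) of the 20 groups, with mean ± SD (bars) and colours for fasted, refed, ZT5 and other libraries. In sorted cells at ZT2 the fasted libraries lie below all ad libitum ones for Kcnd3, Kcnd2 and Kcnq3 and above all of them for Kcnk1 and Kcnmb4.

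At ZT14, in the active phase of mice, fasting was compared with only 3 ad libitum libraries. Kcnd3, Kcnd2, Kcna2, Kcnn3 and the KATP pore gene Kcnj11 fell, and Kcnk1, Kcnmb4, Kcnip1, Kcnip3 and Kcnk12 rose. In all 6 of the 75 members tested rose and 11 fell, which is 22.7% against 18.5% of all genes. Lower members made up 14.7%, against 8.81% of all genes, and higher ones 8%, against 9.66%. Voltage-gated genes counted 3 higher and 8 lower, inward rectifiers 0 and 2, calcium- or sodium-activated genes 1 and 1, and K2P genes 2 and 0.

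Kcnd3 had 122, 195 and 283 normalised counts (lowest, median, highest) in the 8 fasted libraries, against 539.5, 619 and 737 in the ad libitum libraries. For ad libitum cells at ZT14 the value of each library is given, here and below, and not in order of size. The groups did not overlap, and the log2 difference was -1.75 ± 0.31 (SE; limma adjusted p = 0.000138). Kcnd2 had 206, 255 and 626 in fasted cells, against 749, 649.7 and 512 in ad libitum cells. Here 1 fasted library reached into the ad libitum range, and the log2 difference was -1.04 ± 0.34 (SE; limma adjusted p = 0.0281). Kcnj11 had 0, 5.66 and 19.1 in fasted cells, against 33.3, 23.7 and 36.3 in ad libitum cells. All fasted libraries were lower, at values under 20 normalised counts, with a log2 difference of -2.91 ± 0.93 (SE; limma adjusted p = 0.0256), a call lost under 7 of 20 alternatives. Kcnn3 differed by -1.62 ± 0.49 (SE; limma adjusted p = 0.018) on the log2 scale, with 1 library of overlap, and Kcna2 by -2.30 ± 0.50 (SE; limma adjusted p = 0.00113), with none.

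All 6 members that rose at ZT14 were among the 7 that rose at ZT2, in a comparison that shares no library with it. Both fasted groups carried the Cebpb and Alyref profile, and the share of all genes that rose at both times was not counted. No result about the members is drawn from this overlap. Kcnk1 had 1365, 2120.2 and 2662 normalised counts in fasted cells, against 436, 514 and 534 in ad libitum cells, and a log2 difference of 1.97 ± 0.35 (SE; limma adjusted p = 0.000109). Kcnmb4 had 43.3, 143 and 380.2 in fasted cells, against 12.8, 6.58 and 15.4 in ad libitum cells, a log2 difference of 3.42 ± 0.62 (SE; limma adjusted p = 0.00016). Neither gene's groups overlapped. Kcnip1 rose by a log2 difference of 1.03 ± 0.22 (SE; limma adjusted p = 0.00113), Kcnip3 by 1.26 ± 0.31 (SE; limma adjusted p = 0.00445) and Kcnk12 by 2.91 ± 0.92 (SE; limma adjusted p = 0.0239). Kcnq3 had 0, 24.5 and 30.8 in fasted cells, against 70.96, 51.3 and 44.7 in ad libitum cells, and although the groups did not overlap its log2 difference of -1.80 ± 0.92 (SE; limma adjusted p = 0.173) missed the threshold. Kcnma1, at -0.45 ± 0.33 (SE; limma adjusted p = 0.362) on the log2 scale, was not called.
The test of whether the fasting difference itself depended on the time called 0 members and 0 of all genes, with 3 members at an unadjusted p under 0.05 in limma and 0 calls by edgeR. The ZT14 calls rested on few libraries: without ad libitum replicate 1, 2 or 3 the count of 17 became 11, 6 or 9. The calls of Kcnd2, Kcnn3 and Kcnk12 were lost under 4, 5 and 3 of 20 alternatives. Astrocyte markers were 271.5 to 15600 in summed level in fasted and 49.4 to 67.5 in ad libitum libraries, with 4 of 7 higher. Of the markers of other hypothalamic neurons 3 of 8 were higher, with sums of 6292 to 23340 in fasted and 5627 to 14180 in ad libitum libraries, and 1 of 3 endothelial and mural and 1 of 5 tanycyte and ependymal markers were higher. Their part was not tested.

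**Figure D3:**
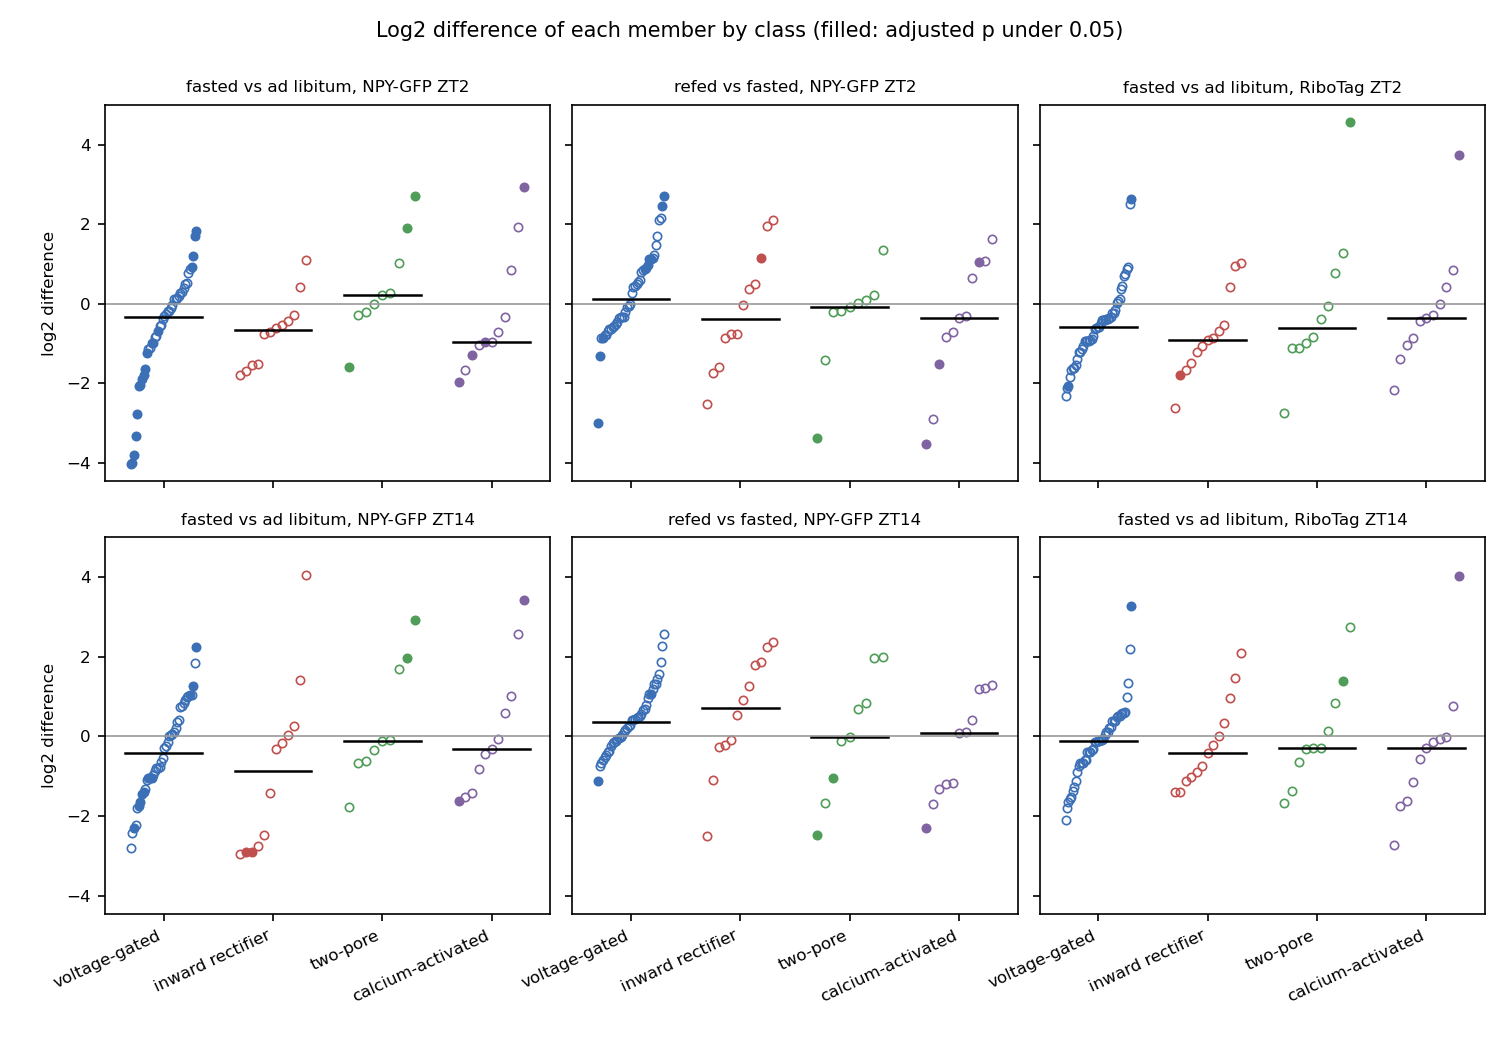
Log2 differences of the members tested (points, filled where the limma adjusted p was under 0.05) by class for fasted against ad libitum and refed against fasted sorted cells and for fasted against ad libitum RiboTag libraries, at ZT2 and ZT14, with class medians (lines) and Kcnq1ot1 left out. In fasted sorted cells at ZT2 most filled points of the voltage-gated class lie below 0, with 4 of 42 higher and 14 lower.

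Refeeding for 1 h after the fast was set against the fast at each time. These comparisons share their fasted libraries with the ones above, so that a value displaced in the fasted group enters both, and no link is drawn between them. At ZT2, 9 of 75 members rose and 6 fell after refeeding, 20% against 21.8% of all genes. The higher ones were 12% of the members tested, against 10.8% of all genes, and the lower ones 8%, against 11.1%. The higher ones included Kcnd3, Kcnd2, Kcnma1, Kcnc2 and Kcnj5, and the lower ones Kcng2, Kcnip1, Kcnk12, Kcna5, Kcnmb4 and Kcnn4. The calls of Kcnd2, Kcnmb4 and Kcnn4 were lost under 9 of 21, 13 of 21 and 13 of 20 alternatives, and those of Kcnd3, Kcnma1, Kcnk12 and Kcna5 with the length and GC correction. Of the astrocyte markers 2 of 7 were lower in refed than in fasted cells, with summed levels of 199 to 2331 in refed and 191.8 to 10470 in fasted libraries, and 1 marker each of other hypothalamic neurons, oligodendrocytes and tanycytes or ependyma was lower, with their part not tested.

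Kcnd3 had 419, 484, 364, 292 and 544 normalised counts in the 5 refed libraries, against 85.1, 209.7 and 310.2 (lowest, median, highest) in fasted ones. The refed libraries overlapped the top of the fasted range, and all 5 lay below every ad libitum library. The log2 difference from fasted cells was 1.12 ± 0.27 (SE; limma adjusted p = 0.0024), with 0.494 as the lowest value over the alternatives, and that from ad libitum cells -0.94 ± 0.28 (SE; limma adjusted p = 0.0178). The GIRK gene Kcnj5 had 370.4, 439.6, 362, 667 and 384 in refed cells, against 84.1, 219 and 296 in fasted cells. No refed library fell inside the fasted range, and the log2 difference was 1.15 ± 0.28 (SE; limma adjusted p = 0.00254). The Kv3 gene Kcnc2 had 3090.2, 1603, 1414, 2995 and 1240.2 in refed cells, against 409, 763 and 1984 in fasted cells, with overlap and a log2 difference of 1.14 ± 0.28 (SE; limma adjusted p = 0.00336). Kcnma1 differed by 1.06 ± 0.28 (SE; limma adjusted p = 0.00608) on the log2 scale, and by 0.0938 with the length and GC correction. Of the SK, KATP and M-current genes, Kcnn3 gave a log2 difference of 1.08 ± 0.42 (SE; limma adjusted p = 0.0651), Kcnj11 one of 1.96 ± 0.80 (SE; limma adjusted p = 0.0761) and Kcnq3 one of 1.70 ± 0.79 (SE; limma adjusted p = 0.125), none of them called.

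Kcng2, a silent subunit that modifies other Kv channels, was lowest in the refed group of ZT2. It had 16.4, 8.28, 8.69, 1.38 and 25.3 normalised counts in refed cells, against 58.96, 71.2 and 160.2 (lowest, median, highest) in fasted cells and 76.9, 88.6 and 105 in ad libitum cells. Every refed library was below every fasted and every ad libitum one. The log2 differences were -2.99 ± 0.42 (SE; limma adjusted p = 2.29e-06) from fasted and -3.17 ± 0.44 (SE; limma adjusted p = 6.27e-06) from ad libitum cells. At ZT14 the refed libraries held 43.97, 38.1, 45.8 and 43.2, against 25.9, 49.8 and 80.7 (lowest, median, highest) in fasted cells. The single ad libitum libraries held 153, 40.8 and 94.9, with overlap, and the gene was not called. The time difference in refed cells, 2.13 ± 0.48 (SE; limma adjusted p = 0.164) on the log2 scale, was not called either.

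Kcnk1, Kcnip3 and Kcnh8 differed from ad libitum cells after 1 h of food at ZT2. Against ad libitum cells 5 members were higher and 6 lower, 14.7% against 17.7% of all genes (9.01% of all genes higher and 8.72% lower). Kcnk1 had 1526, 728, 863, 2347 and 545 normalised counts in refed cells, all above the ad libitum highest value of 368, with a log2 difference of 1.72 ± 0.31 (SE; limma adjusted p = 0.000265). Kcnip3 had 247, 224, 240.3, 139 and 268, also all above the ad libitum range, with a log2 difference of 1.27 ± 0.28 (SE; limma adjusted p = 0.00195). Kcnh8 had 93.5, 51.1, 98.8, 149 and 52.8, all below it, with a log2 difference of -1.96 ± 0.49 (SE; limma adjusted p = 0.00576), and the Erg-type gene Kcnh6 a log2 difference of -1.84 ± 0.42 (SE; limma adjusted p = 0.00243). Other members called here were Kcnab1, Kcna1 and Kcnc2, which were higher, and Kcnc1, Kcnd3 and Kcnn2, which were lower, and without refed replicate 1 or 4 the count of 11 became 7 or 6. The calls of Kcnab1, Kcnc2, Kcnc1, Kcnd3 and Kcnn2 were lost under 6, 11, 1, 6 and 5 of 20 alternatives and that of Kcna1 under 9 of 19. Between refed and ad libitum cells 2 of 7 astrocyte, 2 of 4 POMC-neuron, 3 of 8 other hypothalamic neuron and 1 of 3 endothelial and mural markers were higher in refed cells, with their part not tested.

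At ZT14, 2 members rose and 4 fell after refeeding, 8% against 11.7% of all genes (6.36% of all genes higher and 5.3% lower). Kcnd3 had 447, 639, 306 and 263 normalised counts in refed cells, against 122, 195 and 283 in fasted cells, a log2 difference of 1.06 ± 0.28 (SE; limma adjusted p = 0.00978), with 1 refed library inside the fasted range. Kcnmb4 had 14.97, 40.2, 16.5 and 37.6 in refed cells, all below the fasted lowest value of 43.3, and a log2 difference of -2.31 ± 0.56 (SE; limma adjusted p = 0.00439). Kcnk1 had 732, 738, 1135 and 1247, all below the fasted lowest value of 1365, and a log2 difference of -1.04 ± 0.31 (SE; limma adjusted p = 0.0238). Kcna5 and Kcnk12 also fell, by log2 differences of -1.12 ± 0.33 (SE; limma adjusted p = 0.022) and -2.48 ± 0.83 (SE; limma adjusted p = 0.0451). Kcnq1ot1, a non-coding RNA antisense to Kcnq1 whose reads cannot be told from those of Kcnq1 where the strand setting is not stated, was higher in refed cells at both times (log2 differences 0.96 and 1.12, limma adjusted p = 0.0224 and 0.0189). With the length and GC correction neither Kcnq1ot1 call held, nor those of Kcnd3, Kcnk1, Kcna5 and Kcnk12 at ZT14, and the Kcnk12 call was lost under 13 of 21 alternatives in all. Of the astrocyte markers 1 of 7 was lower in refed than in fasted cells at ZT14. At that time the count of 6 became 14 without fasted replicate 5, 3 without refed replicate 1 and 1 without refed replicate 2. Against ad libitum cells at ZT14 limma called 0 members and, at an adjusted p under 0.05, 0.375% of all genes. Of the members 6 had an unadjusted p under 0.05 and 1 was called by edgeR. The smallest p was that of Kcnip3, at 1.30 ± 0.35 (SE; limma adjusted p = 0.121) on the log2 scale.

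RiboTag libraries gave a separate measure of the fast, in ribosome-bound RNA of other mice. The fasted ones carried the Cebpb and Alyref profile as well, so that fasting and profile cannot be told apart here either. Kcnmb4 and Kcnk12 rose at ZT2, and Kcnmb4 and Kcnk3 rose at ZT14. At ZT2 3 of 81 members tested rose and 2 fell, 6.17% against 7.89% of all 15444 genes tested, and at ZT14 3 rose and 0 fell, 3.7% against 5.29%. Of all genes 4.08% were higher and 3.81% lower at ZT2, and 4.15% higher and 1.14% lower at ZT14. The members' median log2 difference was -0.61 at ZT2, against -0.19 over all genes, and -0.22 at ZT14, against -0.16.

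Kcnmb4 separated the groups at both times. It had 93.4, 179, 119, 149 and 181 normalised counts in the 5 fasted libraries at ZT2, against 26.3, 4.88 and 6.41 in the 3 ad libitum libraries. At ZT14 it had 124, 53.8, 292, 254 and 96.6 in fasted libraries, against 5.92, 8.37, 19.7 and 2.92 in ad libitum libraries. Fasted and ad libitum values did not overlap at either time, and the log2 differences were 3.73 ± 0.67 (SE; limma adjusted p = 0.00224) and 4.02 ± 0.62 (SE; limma adjusted p = 0.000335). Kcnk12 had 199, 285, 37.8, 75.3 and 22.8 in fasted libraries at ZT2, against 2.39, 5.69 and 0.915 in ad libitum ones, and all fasted values were higher, with a log2 difference of 4.57 ± 0.99 (SE; limma adjusted p = 0.0093). At ZT14 it had 164, 135, 15.03, 15.2 and 13.3 in fasted libraries, against 3.70, 2.58, 3.70 and 12.4 in ad libitum ones, again without overlap, but the log2 difference of 2.75 ± 0.91 (SE; limma adjusted p = 0.094) was not called.

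Kcnk3, the acid-sensitive leak channel TASK, had 249.9, 272, 447, 365 and 266 normalised counts in fasted RiboTag libraries at ZT14, against 99.96, 189, 97.4 and 110.2 in ad libitum ones, without overlap, and a log2 difference of 1.38 ± 0.36 (SE; limma adjusted p = 0.0282), a call lost under 6 of 18 alternatives. The 2 members that fell at ZT2 were the A-type Kv1 gene Kcna4, by a log2 difference of -2.07 ± 0.55 (SE; limma adjusted p = 0.0272), and the inward rectifier Kcnj14, by -1.79 ± 0.53 (SE; limma adjusted p = 0.0444), and their calls were lost under 9 and 15 of 17 alternatives.

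Kcnn3 was low in fasted RiboTag libraries without passing the test. It had 59.8, 30.7, 75.5, 56.5 and 61.8 normalised counts in fasted libraries at ZT2, against 185, 217 and 382 in ad libitum ones, and 115, 79.7, 0, 60.8 and 135 in fasted libraries at ZT14, against 237, 223, 375 and 195 in ad libitum ones. No fasted value reached an ad libitum one of its time. The log2 differences were -2.17 ± 1.11 (SE; limma adjusted p = 0.215) and -2.72 ± 1.02 (SE; limma adjusted p = 0.142). Kcnj11 gave a log2 difference of -0.92 ± 0.50 (SE; limma adjusted p = 0.241) at ZT2, Kcnq3 one of -0.93 ± 1.14 (SE; limma adjusted p = 0.629) and Kcnma1 one of -0.28 ± 0.48 (SE; limma adjusted p = 0.744), none called. Without ad libitum replicate 1, 2 or 3 the ZT2 count of 5 became 3, 2 or 2, and without the fasted ZT2 libraries 3 and 5, whose summed values stand apart, it was 5 at ZT2 and 7 in place of 3 at ZT14. No astrocyte marker was called in either RiboTag comparison (0 of 7, median log2 differences -1.22 and -0.29). At ZT2 2 of 4 POMC-neuron markers were higher, with sums of 2877 to 22870 in fasted and 1042 to 3053 in ad libitum libraries, and 2 of 8 markers of other hypothalamic neurons, with sums of 14210 to 127500 in fasted and 3902 to 9247 in ad libitum libraries. Of the oligodendrocyte precursor markers 1 of 3 was lower at ZT2 and 1 of 3 higher at ZT14. Their part was not tested.

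The library profile that the fasted libraries share with the ZT5 set, which the labels do not describe as fasted, bears on several of these members. Kcnk12 had 13.3 to 285 normalised counts in the 25 fasted libraries and 86.9 to 162 in the 5 ZT5 libraries, against 0 to 42.9 in the other 50. Kcnmb4 had 42.7 to 380.2 in fasted and 44.9 to 128 in ZT5 libraries, against 2.92 to 116 in the others. Kcnd3 had 47.6 to 567 in fasted and 163 to 294 in ZT5 libraries, against 243 to 1276 in the others. ZT5 libraries thus lay within the fasted range for these 3 genes. For Kcnmb4 and Kcnd3 the ZT5 range also overlapped that of the other 50, and only for Kcnk12 did it not. ZT5 controls minus PBS-treated ZT2 controls, a difference between experiments with no test, had the same sign as the fasting difference for 20 of 26 members called at ZT2 (73% of all called genes) and 12 of 17 called at ZT14 (73.3%). By gene it was 3.28 for Kcnk12, 1.64 for Kcnmb4, -1.32 for Kcnd3, -2.81 for Kcnq3 and -0.85 for Kcnn3 on the log2 scale, while Kcnk1 and Kcnip3, at -0.13 and -0.17, had the opposite sign to their rise with fasting. These values rest on the 2 ZT5 controls alone, taken as labelled. For Kcnq3 those controls held 2.69 and 28.6 normalised counts, against 28.1 to 35.6 in the ZT5 libraries labelled knockout.

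Long transcripts also fell more with the fast than short ones, among the members as over all genes. Spearman's rho between transcript length and the fasting log2 difference was -0.50 over the 75 members and -0.35 over 14724 genes at ZT2, and -0.21 and -0.23 at ZT14. In RiboTag libraries rho was -0.35 over the 81 members and -0.49 over 15243 genes at ZT2, and -0.35 and -0.30 at ZT14. These are descriptions across genes, which share libraries and are not replicates. The median transcript length was 4058 bases over the members tested in sorted cells and 3341 over all genes tested there. Kcnq3, Kcnma1 and Kcna2, at 11824, 12094 and 11582 bases, were among the long ones, and Kcnmb4, Kcnk12 and Kcnk1, at 1626, 1972 and 2235 bases, among the short ones. Kcnd3, Kcnd2, Kcnq3 and Kcnh8 kept their ZT2 calls in every alternative, the length and GC correction included.

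**Figure D4:**
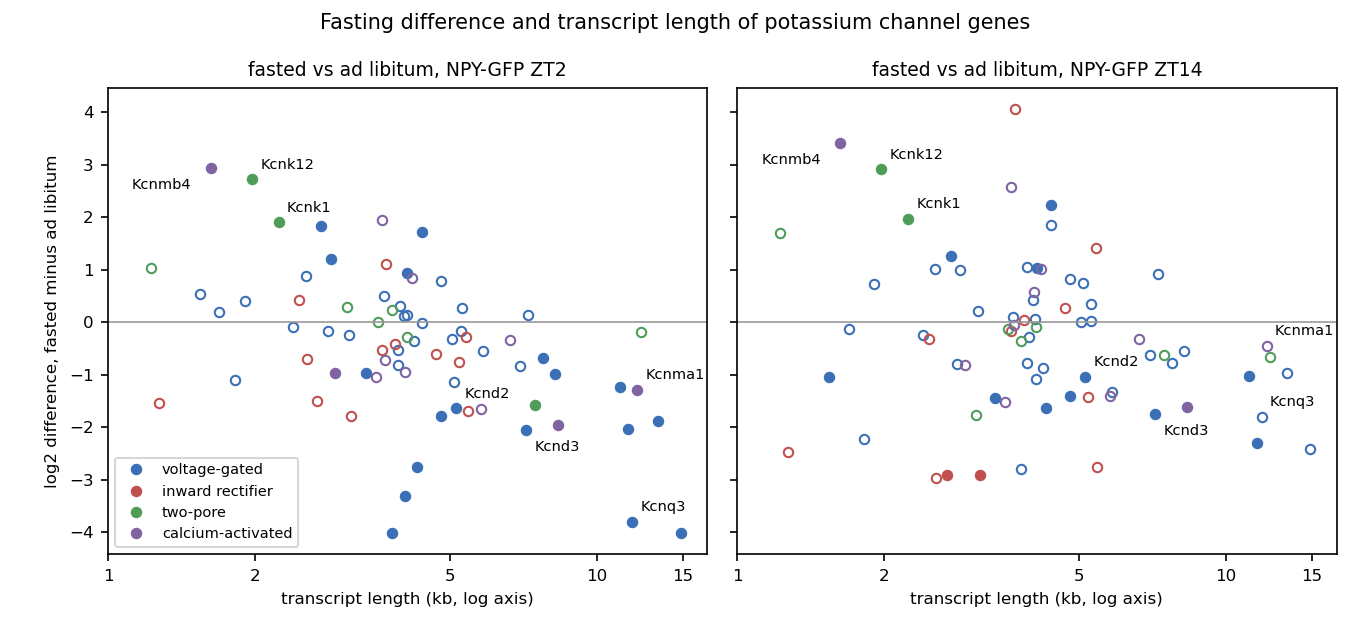
Log2 difference of fasted against ad libitum sorted cells (vertical axis) by transcript length in kb (horizontal log axis) for the members tested at ZT2 and ZT14, filled where the limma adjusted p was under 0.05, with Kcnq1ot1 left out. Kcnmb4, a short member, lies above 0 and Kcnq3, a long one, below it, with a Spearman's rho over the members of -0.50 at ZT2 and -0.21 at ZT14.

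Time of day, the study's other axis, called few members. Between ZT14 and ZT2 in fasted sorted cells 1 member was called, where 0.281% of all genes were: Kcnh5, an Eag channel, had 4.38, 21.2 and 39.6 normalised counts (lowest, median, highest) at ZT14, against 0, 0 and 12.4 at ZT2. Of the 7 ZT2 libraries 5 were at 0, and the log2 difference was 3.39 ± 0.68 (SE; limma adjusted p = 0.0172), lost under 5 of 24 alternatives, edgeR among them. In ad libitum sorted cells limma called 0 members (4 at an unadjusted p under 0.05, 0 by edgeR, 0% of all genes), and in refed cells 0 (5 at an unadjusted p under 0.05, 0 by edgeR, 0.0268% of all genes). In RiboTag libraries it called 0 in either state (4 in fasted and 0 in ad libitum mice at an unadjusted p under 0.05, 0 by edgeR, 0% of all genes). The shares of all genes are at an adjusted p, unlike the unadjusted counts of members. In ad libitum sorted cells the smallest p belonged to Kcnip3, at 0.76 ± 0.33 (SE; limma adjusted p = 1) on the log2 scale, with values of 143, 167 and 149.6 at ZT14 and 36.4, 109 and 134 (lowest, median, highest) at ZT2.

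Leptin and the loss of Bmal1 were tested in 12 comparisons of 25 libraries, with 69 members passing the filter. Only 1 member was called in 1 of them: leptin against PBS in knockouts at ZT2, where 0.423% of all genes were. Kcnk1 had 431, 508 and 236 normalised counts in knockouts given leptin, against 1599.8, 929 and 972 in knockouts given PBS. All leptin values lay below all PBS values, and the log2 difference was -1.60 ± 0.35 (SE; limma adjusted p = 0.0388), a call lost under 8 of 14 alternatives, among them leaving out any of 5 libraries. In floxed controls at ZT2 Kcnk1 had 320.4, 507 and 543 with leptin, against 494, 793, 673 and 536 with PBS, which overlapped, with a log2 difference of -0.46 ± 0.33 (SE; limma adjusted p = 1). The test of whether the leptin difference itself depended on the genotype called 0 members at ZT2 and 0 at ZT14, and 0% of all genes at an adjusted p under 0.05. Of the members 6 and 2 had an unadjusted p under 0.05, and edgeR called 0.

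None of the other leptin and genotype comparisons called a member by limma or edgeR. At ZT2 the members with an unadjusted p under 0.05 numbered 2 for leptin in floxed controls, 8 for knockout against control with PBS and 3 with leptin, where 0.0215%, 0.0215% and 0.00717% of all genes were called. At ZT14 they numbered 7 for leptin in knockouts and 4 in controls, 5 for knockout against control with PBS and 2 with leptin, where 0.0861%, 0%, 0.00717% and 0.0215% of all genes were called. Those with the smallest p included Kcnab1 and Kcna4 for knockout against control with PBS at ZT2, at log2 differences of 1.51 ± 0.45 (SE; limma adjusted p = 0.488) and -1.06 ± 0.34 (SE; limma adjusted p = 0.541), and Kcnk3 for leptin in knockouts at ZT14. Kcnk3 had 96.9, 81.2 and 96.2 with leptin, against 155, 204 and 228 with PBS, values that did not overlap, and its log2 difference of -1.08 ± 0.32 (SE; limma adjusted p = 0.449) missed the threshold. Kcnj11, the pore of the leptin- and insulin-responsive KATP channel, was -1.43 ± 0.63 (SE; limma adjusted p = 0.501) for leptin in knockouts and 0.67 ± 0.59 (SE; limma adjusted p = 1) in controls at ZT2. For ZT14 against ZT2 limma called 0 members in PBS-treated controls (4 at an unadjusted p under 0.05, 0 by edgeR, 0.00717% of all genes) and 0 in PBS-treated knockouts (5, 0 by edgeR, 0% of all genes). All shares of genes in this paragraph are at an adjusted p under 0.05, so they are no reference for the unadjusted counts of members.

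In the ZT5 set limma called 0 of 60 members between the libraries labelled knockout and those labelled control, and 0% of all genes at an adjusted p under 0.05. Of the members 2 had an unadjusted p under 0.05, and edgeR called 0. The silent subunit Kcng4 had 5.35, 2.85 and 9.37 normalised counts in the libraries labelled knockout, against 34.02 and 100.7 in those labelled control, a log2 difference of -3.24 ± 1.14 (SE; limma adjusted p = 0.523). Kcna4 had 36.1, 78.4 and 46.8 in the libraries labelled knockout, against 25.97 and 2.72 in those labelled control, a log2 difference of 2.38 ± 1.06 (SE; limma adjusted p = 0.559). In both genes the groups did not overlap and the test was not passed.

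Genes that accompany these channels were counted from a list of 29 partners: KATP sulfonylurea receptors, Kv4 and BK auxiliary proteins, scaffolds of Kv channels, and GIRK regulators. In fasted against ad libitum sorted cells at ZT2 4 of 25 tested partners rose and 10 fell, with a median log2 difference of -0.35. These were 16% higher and 40% lower, against 18.3% and 19.2% of all genes. Ankyrin-G, encoded by Ank3 and known to anchor Kv7 channels at the axon initial segment, fell by a log2 difference of -1.85 ± 0.17 (SE; limma adjusted p = 5.83e-10), and Ank2, another ankyrin, by -1.94 ± 0.23 (SE; limma adjusted p = 4.81e-08). Cntnap2, which clusters Kv1 channels, fell by -1.57 ± 0.29 (SE; limma adjusted p = 5.71e-05), and Akap5, a kinase anchor of Kv7 channels, by -1.97 ± 0.37 (SE; limma adjusted p = 8.07e-05). Abcc8, the sulfonylurea receptor that pairs with Kcnj11, had 0, 56.99 and 102 normalised counts (lowest, median, highest) in fasted cells, against 82.6, 124 and 188 in ad libitum cells. Its log2 difference was -1.81 ± 0.70 (SE; limma adjusted p = 0.0392), but -0.94 without fasted replicate 3, and the call was lost under 11 of 22 alternatives. Vapa, which tethers membrane proteins at contacts with the endoplasmic reticulum, rose by 1.44 ± 0.24 (SE; limma adjusted p = 1.14e-05), and Rgs7, which speeds the closing of GIRK channels, by 1.05 ± 0.26 (SE; limma adjusted p = 0.00166). At ZT14 2 partners rose and 5 fell, namely Ank2, Akap5, Ank3, Cntnap2 and Adam22 (8% higher and 20% lower, against 9.66% and 8.81% of all genes), with the call of Adam22 lost under 15 of 20 alternatives. With the length and GC correction Cntnap2 lost its call at both times and Ank3 at ZT14. At ZT2 the log2 differences of Ank3, Ank2 and Akap5 shrank to -0.65, -0.50 and -1.12 with this correction and the replicate block. Their ZT2 calls held in every alternative. In RiboTag libraries 1 of 27 rose and 2 fell at ZT2 (3.7% and 7.41%, against 4.08% and 3.81% of all genes) and 1 rose and 0 fell at ZT14 (3.7% higher, against 4.15%). In refed against fasted cells 4 of 25 partners were higher and 6 lower at ZT2 (16% and 24%, against 10.8% and 11.1% of all genes), and 4 were higher and 3 lower at ZT14 (16% and 12%, against 6.36% and 5.3%). In refed against ad libitum cells 0 were higher and 9 lower at ZT2 (36% lower, against 8.72% of all genes) and 0 were called at ZT14. The leptin, genotype and time comparisons called 0 of them in limma.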

How the data were processed

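Expression was measured by RNA-seq. Per the labels' protocols, arcuate cells dissociated from slices were sorted for GFP or RiboTag RNA was immunoprecipitated, then amplified (SMART-seq v4) and made into Nextera XT libraries. The submitters' processing notes name R 3.5.1, DESeq, DESeq2, featureCounts (Subread), STAR 2.5.1 and the mm10 build. Their roles and the strand setting are not given in the sources used here. The deposited values are a signal, namely counts per gene divided by a size factor per library, so that they are comparable between libraries but not between genes of different length. Whole reads were recovered (within 0.1 of a whole number) in 79 of 80 libraries. Sorted ad libitum ZT2 replicate 4 gave no whole reads and was left out of the edgeR test only.

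Each experiment was fitted alone, with all its groups taken from the labels, by limma 3.58.1 (limma-trend, R 4.3.3) on log2(value + 1), which understates differences of low genes. A gene was tested if the number of libraries at 10 or above reached the size of the smallest group. Benjamini-Hochberg adjustment ran over every gene tested, with 0.05 as the threshold. Shares of all genes called are at that threshold, also where members are counted at an unadjusted p. The fit was tested on simulated data. Transcript lengths came from GENCODE M21 (GRCm38, the same assembly as mm10), which gave a length for all 95 members, and promoters from RefSeq (GRCm38.p6). Recovered depth was 5.93 to 34 M reads, and counting error is largest for members near 0.

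Alternatives were a pseudocount of 10, no filter, TMM rescaling, edgeR 4.0.16 (quasi-likelihood) on recovered reads, the replicate number as a block, a correction for transcript length and GC content, the groups of a comparison alone, each library left out in turn and, added after seeing the data, fits without doubted libraries. The members, lists and tests were chosen with earlier results of these data known. Members with a group mean of at least 50 could be named: in feeding comparisons up to 8 called ones per direction by smallest p, in others up to 4, up to 2 where none was called, and Kcnj11, Kcnma1, Kcnq3 and Kcnn3 throughout. A few members are part of the counts but are not reported here by name.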

Additional observations from a re-analysis of the deposited data

Results flagged for a closer look

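In 16 members 144 groups of 4 to 8 libraries were searched for a library standing apart from the others of its group, and 12 had one. The cut-off gives about 1 in 20 by chance for normally distributed values. It was applied to normalised counts without a log, and all 12 were highest values, so no excess over chance is read from the count. Of these, 3 lay in RiboTag fasted ZT2 replicate 3 or ad libitum ZT14 replicate 3, libraries with high glial marker sums: Kcnip3 at 1496 normalised counts (next 635.5) and Kcnk1 at 2495 (next 1304) in the fasted library, and Kcnip3 at 1578 (next 447) in the ad libitum library. RiboTag fasted ZT14 replicate 4, which has the highest oligodendrocyte marker sum of its group at 96530, held 1727 normalised counts of Kcna2 (next 385.5). The part of glial RNA in these values was not tested. RiboTag ad libitum ZT14 replicate 4 held 12.4 of Kcnk12 (next 3.70) and 89.0 of Kcnj11 (next 62.5).

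In sorted cells, refed ZT2 replicate 4 held 88 normalised counts of Kcnj11 (next 34.0) and 667 of Kcnj5 (next 439.6). Fasted ZT14 replicate 5 held 773 of Kcnj5 (next 380.0). Fasted ZT2 replicate 7 held 160.2 of Kcng2 (next 82.9), and fasted ZT2 replicate 3 held 131 of Kcnn3 (next 63.1). In the leptin experiment, PBS-treated control ZT2 replicate 2 held 963 of Kcnab1 (next 276).

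Leptin and PBS libraries of knockouts stood apart in opposite directions at ZT2 and ZT14 for the silent subunit Kcnv1 and the beta subunit Kcnab1. Kcnv1 had 11.6, 20.97 and 9.74 normalised counts with leptin at ZT2, against 232, 102 and 442 with PBS, and 310.0, 293 and 143 with leptin at ZT14, against 42.8, 137 and 78.7 with PBS. Its log2 differences were -3.94 at ZT2 (limma adjusted p = 0.0521) and 1.59 at ZT14 (limma adjusted p = 0.996). Those of Kcnab1 were -2.09 (limma adjusted p = 0.0547) and 1.08 (limma adjusted p = 0.928), so that none of the 4 was called. The difference between the times was not tested. These came from 20 pairs of comparisons searched over 72 members. The share of all genes that stood apart in this way was not counted, so no result about the members is drawn from it.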

How the results depend on the processing

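Of 70 results for single genes (31 genes), 27 were called under every alternative and 43 were lost under at least 1. The direction reversed in 3 cases: Kcnma1 in fasted cells at ZT2 came to 0.0862 with the length and GC correction and 0.0203 with it and the replicate block, and Kcnq1ot1 in refed against fasted cells at ZT14 came to -0.0256 with the correction.

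Counts of called members moved as follows. With the length and GC correction refed against fasted cells gave 9 at ZT2 and 1 at ZT14, RiboTag fasting gave 8 at ZT2 and 6 at ZT14, and leptin in knockouts at ZT2 gave 3. With the correction and the replicate block fasting at ZT2 gave 17, refed against fasted cells 8 and 2, and leptin in knockouts 2. With the replicate block alone, with TMM rescaling or with a pseudocount of 10, leptin in knockouts at ZT2 gave 2. With the groups of a comparison alone it gave 2 too, RiboTag fasting at ZT2 gave 3, and refed against ad libitum cells at ZT14 gave 3, against 1 by edgeR and 1 without doubted libraries. RiboTag fasting at ZT14 gave 7 without doubted libraries. The 1 call for time in fasted cells became 0 with a pseudocount of 10, edgeR, the replicate block or its groups alone. The edgeR test could not use sorted ad libitum ZT2 replicate 4. Causes were not tested.

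Leaving out 1 library gave 22 to 27 calls for fasting at ZT2, 12 to 16 for refed against fasted and 6 to 15 for refed against ad libitum cells at ZT2, 6 to 21 for fasting and 1 to 14 for refed against fasted cells at ZT14, 0 to 2 for time in fasted and 0 to 1 in refed cells, 2 to 6 and 2 to 4 for RiboTag fasting at ZT2 and ZT14, 0 to 1 for leptin in knockouts at ZT2 and 0 to 1 for knockout against control with PBS at ZT2.

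The replicate numbers did not pair the samples: correlations of same-numbered deviations ran from -0.13 to 0.07 for fasting at ZT2, and no comparison had every pair over 0.1. The replicate block moved no other count by over 1.5 times. Members near 0, such as Kcnq3, Kcnj11 and Kcnh5, are limited by depth.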

Other observations

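At ZT14 a few members that stayed under 10 normalised counts in ad libitum sorted cells were high in some fasted libraries. Kcnj16, a glial inward rectifier, had 0, 13.97 and 799.7 normalised counts (lowest, median, highest) in fasted cells at ZT14, against 0.855, 0 and 0 in the single ad libitum libraries. Kcnn4, a calcium-activated channel best known from blood and epithelial cells, had 0, 1.30 and 274 in fasted cells, against 0, 0 and 0 in the single ad libitum libraries. The BK beta subunit Kcnmb1, known from smooth muscle, had 0, 8.05 and 459 in fasted cells, against 9.40, 6.58 and 5.40 in the single ad libitum libraries. In each of these genes the median stayed under 15 normalised counts while the highest library exceeded 270. The genes were picked for these high values, so no result about fasting is drawn from them. The highest group mean of Kcnn4, 57.7, was that of this fasted group. Marker sums in the fasted group reached 15600 for astrocytes (median 700.6) and 6310 for tanycytes and ependyma (median 147.5). The part of such cells in the high values was not tested.

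Kcnf1, a silent Kv subunit, varied more between libraries than most abundant members. It had 559.9, 901 and 3513 normalised counts (lowest, median, highest) in fasted sorted cells at ZT14, against 576, 472 and 564 in the single ad libitum libraries. Single fasted RiboTag libraries held 1791, 4527, 451, 524 and 2147, against 1423, 2295, 2061 and 2479 in ad libitum ones.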
